A study of Mus musculus with 3 samples.

Results

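Vascular calcification uses part of the programme that builds cartilage and bone, and 10 genes of that programme were followed here in the mouse aorta. They are the transcription factors Runx2, Msx2 and Sox9, the cartilage matrix and secreted protein genes Comp, Chad, Acan and Cytl1, the calcification inhibitors Mgp and Enpp1, and Alpl, the gene for tissue-nonspecific alkaline phosphatase. The genes were chosen by symbol, with earlier results of these data known. All 10 were found among the 32285 genes of the deposited count matrices. No level of theirs entered the choice of the cells that were compared. The cells came from mice in which the mouse Apoe locus carries a human APOE2, APOE3 or APOE4 gene, backcrossed to C57BL/6J. All were males, aged 12 weeks when they went on a Western diet of 42% fat and 0.2% cholesterol, which they ate for 16 weeks. Whole aortas, from the arch to the iliac bifurcation, were digested to single cells, and cells were pooled into 1 droplet library per genotype, from 6 mice for APOE2, 5 for APOE3 and 7 for APOE4. No group on chow and no mouse with its own Apoe gene was analysed here. ApoE is the apolipoprotein that carries remnant lipoproteins to their receptors, and its human isoforms differ in receptor binding.

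In bone and cartilage, Sox9 drives chondrocyte differentiation and Runx2 drives osteoblast differentiation, and Msx2 is a homeobox factor downstream of bone morphogenetic proteins. Comp and aggrecan (Acan) are load-bearing components of cartilage matrix, chondroadherin (Chad) is a leucine-rich matrix protein of cartilage, and Cytl1 encodes a small secreted protein of cartilage. Matrix Gla protein (Mgp) blocks mineral growth in the artery wall. Enpp1 makes the mineral inhibitor pyrophosphate, and alkaline phosphatase (Alpl) breaks it down. Smooth muscle cells that lose their contractile state can express several of these genes in diseased arteries.

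Counts of unique molecular identifiers (UMIs) were summed over cells and given as CPM, the usual scaling of a gene's count to the total count of the same cells. With 1 library per genotype there was no replicate, no test and no p-value, and every interval is an exact 95% interval that covers counting error only. CPM was compared between cells for the same gene and never between genes. A difference between genotypes or position codes was called when it was at least 2-fold and its interval excluded equality, for genes with at least 50 UMIs in the cells compared. A cluster or cell class set against smooth muscle cells had to be at least 2-fold above them. It also had to be above them in each library with at least 30 cells there, and needed its 50 UMIs within itself. No interval entered the calls of clusters. The share of all genes called in the same way is given as the background.

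The positions of the genes are given on GRCm38, the build of the deposited counts (mm10). Runx2 lies at chr17:44495987-44814797 on the minus strand, Msx2 at chr13:53466884-53473074 (minus), Sox9 at chr11:112782224-112787760 (plus) and Comp at chr8:70373558-70382066 (plus). Chad lies at chr11:94565047-94569127 (plus), Acan at chr7:79053483-79115099 (plus) and Cytl1 at chr5:37735519-37739820 (plus). Mgp lies at chr6:136872435-136875823 (minus), Enpp1 at chr10:24637914-24712159 (minus) and Alpl at chr4:137741733-137796384 (minus).

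Promoter sequences from RefSeq (GRCm38.p6), covering 250 bases before to 50 bases after the start, were found for 7 of the 10 genes. Those of Runx2, Msx2, Enpp1 and Cytl1 are shown because these genes were highest together in the same smooth muscle cluster. They are the stretches chr17:44814578-44814877 (minus strand), chr13:53472731-53473030 (minus), chr10:24712110-24712409 (minus) and chr5:37735269-37735568 (plus). Capitals mark matches, on either strand, to the Runx motif TGTGGT, the Sox motif ACAAAG, the homeobox motif TAATTA and the TATA box TATAAA, none of which overlap here.
Runx2: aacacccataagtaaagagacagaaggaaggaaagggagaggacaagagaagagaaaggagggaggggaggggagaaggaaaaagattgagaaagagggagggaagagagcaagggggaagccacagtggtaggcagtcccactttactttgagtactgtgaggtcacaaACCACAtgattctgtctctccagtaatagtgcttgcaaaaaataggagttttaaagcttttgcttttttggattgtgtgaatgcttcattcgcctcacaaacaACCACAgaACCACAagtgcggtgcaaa
Msx2: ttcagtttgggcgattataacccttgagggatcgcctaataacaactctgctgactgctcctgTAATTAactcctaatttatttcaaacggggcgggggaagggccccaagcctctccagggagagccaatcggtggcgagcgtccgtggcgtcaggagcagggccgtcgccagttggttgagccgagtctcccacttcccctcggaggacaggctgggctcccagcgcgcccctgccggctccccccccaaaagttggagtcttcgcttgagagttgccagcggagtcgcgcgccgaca
Enpp1: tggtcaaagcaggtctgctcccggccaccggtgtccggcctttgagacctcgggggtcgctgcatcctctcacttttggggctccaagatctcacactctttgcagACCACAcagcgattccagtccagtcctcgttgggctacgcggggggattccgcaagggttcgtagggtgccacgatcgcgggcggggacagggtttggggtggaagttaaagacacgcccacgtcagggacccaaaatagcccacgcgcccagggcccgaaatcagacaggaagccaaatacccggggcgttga
Cytl1: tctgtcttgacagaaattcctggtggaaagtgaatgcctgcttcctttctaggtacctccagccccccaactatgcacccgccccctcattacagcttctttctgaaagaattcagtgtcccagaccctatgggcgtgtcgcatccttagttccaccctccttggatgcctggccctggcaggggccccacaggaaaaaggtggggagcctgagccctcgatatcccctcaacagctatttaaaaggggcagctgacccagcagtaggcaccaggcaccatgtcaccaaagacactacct
Runx2 held 3 Runx motifs, Enpp1 held 1 Runx motif, Msx2 held 1 homeobox motif, and Cytl1 held none of the 4. Among 32851 RefSeq mouse promoters of this length, 16.8% held the Runx motif, 18.7% the Sox motif, 5.29% the homeobox motif and 13.6% the TATA box. These matches describe letters in the window and are no evidence of binding.

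The libraries held 12288 (APOE2), 7247 (APOE3) and 8971 (APOE4) barcodes. Of these, 11772, 6737 and 8248 cells had at least 200 genes and under 20% mitochondrial UMIs, with 124926887 to 168310501 UMIs per library and medians of 12047 to 17618 UMIs per cell. Pairs of libraries shared 14 to 27 barcodes, and none was in all 3. Clustering without the 10 genes gave 25 clusters, of which 8 were smooth muscle-like (17996 cells) and 2 fibroblast-like (2772 cells). Clusters 10, 11 and 21 (872, 698 and 113 cells) also kept smooth muscle markers but had few UMIs per cell. They were left out of the 8. Markers went against a single smooth muscle class in part. Clusters 2, 4 and 6 had more markers of another type than of smooth muscle among their 10 leading genes, which included the heart muscle genes Myh6 and Tnni3 in cluster 2. Values are therefore given by cluster number, and calls of the 10 genes between genotypes in the sum over the 8 clusters are given with and without these 3. Chondrocyte markers summed to 6.4 to 8.7 CPM in the smooth muscle clusters, with Matn1 at 0, and osteoblast markers to 8.6 to 10.7 CPM, with Dmp1 at 0. Cluster 9, with 943 cells and a median of 3039 UMIs per cell, was left unnamed and in no class. It kept 10 of 10 smooth muscle markers and raised 8 of 8 fibroblast markers, and the cartilage genes Otor, Otos, Col2a1 and Chad were among its 10 leading genes.

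Runx2 and Msx2, the osteoblast-type factors, were highest by far in 1 of the 8 smooth muscle clusters. Cluster 12 held 474 of the 536 Msx2 UMIs of these clusters and 486 of the 702 Runx2 UMIs, in 690 cells (294 APOE2, 148 APOE3 and 248 APOE4). It kept 9 of the 10 smooth muscle markers, a marker being kept when its CPM reached at least 50% of that in the whole data set. Its 10 leading genes over the other smooth muscle cells, ranked by the ratio of CPM + 1, were Adamtsl1, Mdga2, Prss12, Cytl1, Hhip, Lum, Prg4, Fgf12, Tshz2 and Lpar1. They included Lum, a fibroblast marker, and no smooth muscle marker, so the cluster is called by its number. Against the other smooth muscle cells, 5 of 7 markers of modulated smooth muscle and 3 of 6 markers of arch smooth muscle were at least 2-fold higher in it. Because the genes were left out of the clustering features, the clusters were not built on them. Other genes that move with them were kept, so the values describe the cluster and do not test it.

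Runx2 stood at 35.5 CPM in cluster 12 in APOE2, 57.4 in APOE3 and 24.1 in APOE4. Among the other smooth muscle cells it was 1.08, 0.641 and 0.404 CPM. Cluster 12 was above the other cells in each library, and over all libraries its level was 35.9 against 0.725 CPM, 49.6-fold higher (42.2 to 58.5). For Msx2 the levels in cluster 12 were 28.1, 49.4 and 33.8 CPM in APOE2, APOE3 and APOE4, against 0.237, 0.130 and 0.249 CPM elsewhere, a difference of 168-fold (129 to 223). Sox9, the cartilage factor, was less restricted. Its level was 62.2, 60.4 and 105.8 CPM in cluster 12 and 6.98, 12.5 and 16.8 CPM in the other smooth muscle cells, 6.64-fold higher (6.19 to 7.11). The next smooth muscle cluster in order was cluster 7 for Sox9, at 22.7 CPM, while Runx2 stayed at or under 1.2 CPM in each of the other 7 clusters and Msx2 at or under 0.40 CPM.

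Enpp1 was the other member raised evenly across the libraries in cluster 12. It stood at 50.6, 59.1 and 52.3 CPM there and at 20.4, 22.5 and 18.0 CPM in the other smooth muscle cells, 2.62-fold higher (2.42 to 2.83). Cytl1 stood at 360, 687 and 397 CPM against 2.36, 7.03 and 1.43 CPM, 128-fold higher (120 to 136), and Chad at 3.70 against 0.312 CPM on 50 UMIs in the cluster. In all, 6 of the 10 genes were called higher in cluster 12, where 9.8% of 11057 genes were. The other 4 were not raised. Comp was 0.785-fold (0.666 to 0.921), Acan 0.955-fold (0.847 to 1.07), Mgp 1.02-fold and Alpl 0.548-fold (0.362 to 0.796) of the level in the other smooth muscle cells.

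**Figure D1:**
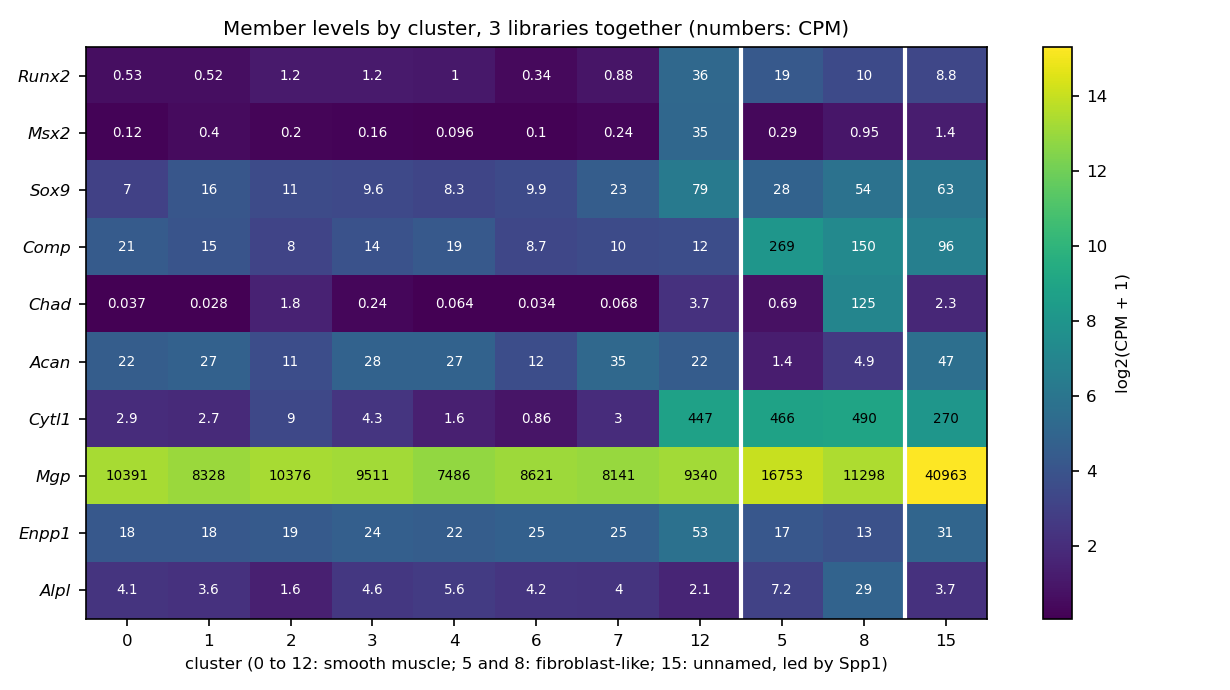
Level of each of the 10 genes in the smooth muscle clusters, fibroblast-like clusters 5 and 8, and cluster 15, as CPM over the 3 libraries together. Runx2 (35.9 CPM), Msx2 (35.0 CPM), Sox9 (78.7 CPM) and Enpp1 (53.2 CPM) were highest in cluster 12, whereas Mgp and Acan were highest in cluster 15 and Comp, Chad, Cytl1 and Alpl in a fibroblast-like cluster.

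Cluster 12 also held fibroblast-marker RNA. The 8 fibroblast markers summed to 2378, 1839 and 1525 CPM in the 3 libraries, against 77.0, 32.8 and 24.9 CPM in the other smooth muscle clusters. This RNA was concentrated in 94 of its 690 cells (36 APOE2, 24 APOE3 and 34 APOE4), which had more UMIs of the 8 fibroblast markers than of the 10 smooth muscle markers. In these 94 cells the fibroblast markers summed to 12213 CPM and the smooth muscle markers to 1879 CPM, and in the other 596 cells to 493 and 34130 CPM. Among them 3.19% were in the highest doublet scores, against 8.22% of the other cells. Over the 3 libraries together, pericyte markers summed to 1661 CPM in cluster 12 and to 667 CPM in the other smooth muscle clusters. Chondrocyte markers summed to 22.3 and 6.73 CPM, and heart muscle markers to 93.7 and 238 CPM.

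The 10 genes divided between these 2 sets of cells. The 94 fibroblast-marker cells held 82.0% of the cluster's Cytl1 UMIs and 96% of its Chad UMIs, but 2.74% of its Msx2 UMIs. Cytl1 stood at 2992 CPM in them and at 91.6 CPM in the remaining 596 cells, where 56 cells had any Cytl1 UMI. Chad stood at 29.0 CPM in them and had 2 UMIs in the rest. Msx2 showed the opposite order, with 7.85 CPM (4.18 to 13.4) in the 94 cells and 38.8 CPM (35.4 to 42.5) in the rest. Runx2 was high in both, at 50.1 CPM (39.9 to 62.1) and 33.9 CPM (30.7 to 37.4), and so was Sox9, at 112 CPM (96.2 to 129) and 74.0 CPM (69.2 to 79.1). Enpp1 stood at 41.1 CPM (31.9 to 52.0) and 54.8 CPM (50.7 to 59.2). Without such cells in any smooth muscle cluster, 5 genes were called in cluster 12. The share of all genes called in this smaller set was not counted. Runx2 was then 46.9-fold above the other smooth muscle cells, Msx2 187-fold, Sox9 6.25-fold, Cytl1 26.2-fold and Enpp1 2.70-fold, and Chad was no longer called. The split was made after the data were seen.

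Within cluster 12, the cells with at least 1 UMI numbered 255 (37.0%) for Runx2, 260 (37.7%) for Msx2, 359 (52.0%) for Sox9, 381 (55.2%) for Enpp1 and 134 (19.4%) for Cytl1. The first 4 genes were thus spread over many cells, while 16 cells held 50% of the Cytl1 UMIs. After each cell was thinned to 1000 UMIs these shares were 3.77%, 3.19%, 5.51%, 5.65% and 10.6%. At that depth co-detection was too sparse to read. Of 22 cells of cluster 12 with an Msx2 UMI, 4 had a Sox9 UMI and none a Cytl1 UMI.

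**Figure D2:**
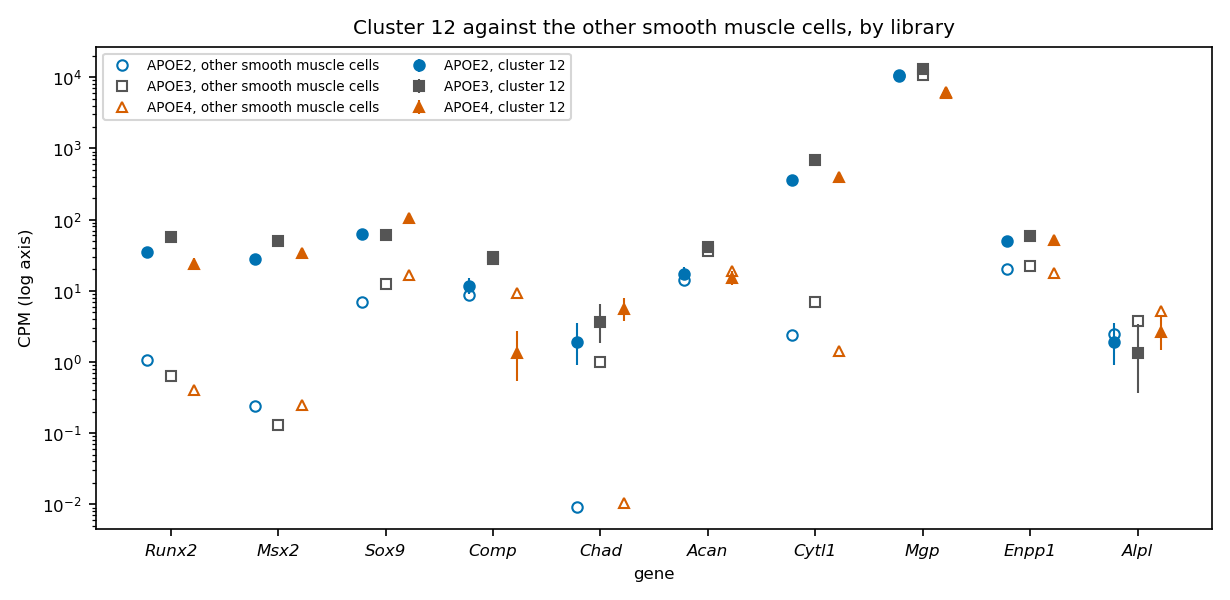
Level of Runx2, Msx2, Sox9, Cytl1 and Enpp1 in cluster 12 and in the other smooth muscle cells of each library, as CPM on a log axis. Cluster 12 lay above the other smooth muscle cells in all 3 libraries for Runx2, Msx2, Sox9, Cytl1 and Enpp1. Over the libraries together this ran from 2.62-fold for Enpp1 to 168-fold for Msx2. Comp (0.785-fold), Acan (0.955-fold), Mgp (1.02-fold) and Alpl (0.548-fold) were not called.

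Other genes of the same programme were counted in 6 lists with 87 genes. In cluster 12, 5 of 11 measured osteochondrogenic transcription factor genes were called higher, among them Dlx5 (94.9 against 1.80 CPM, 52.6-fold) and Dlx6 (86.6 against 0.949 CPM, 91.2-fold), homeobox genes of skeletal patterning. Msx1 was 3.02-fold and Trps1 2.53-fold higher. Among BMP signalling genes, 8 of 18 were called, and most of the named ones encode secreted antagonists. Nog was 55.6-fold, Grem1 278-fold, Chrdl1 3.73-fold and Chrdl2 617-fold higher, Chrdl2 on 56 UMIs. Bmp4, a ligand, was 3.73-fold higher and Bmpr1b, a receptor, 3.87-fold. Of the cartilage matrix list 6 of 9 were called, with Mia at 8.43-fold and Hapln1 at 5.88-fold, while Col2a1, the main cartilage collagen, had 0 UMIs in the cluster. The lists for bone matrix (2 of 5), phosphate and pyrophosphate handling (2 of 5) and calcification inhibitors (2 of 7) had fewer calls. Enpp3, related to Enpp1, was 43.3-fold higher and Ank, which exports pyrophosphate, 2.51-fold. These calls stand beside the same 9.8% background. The lists were chosen with earlier results of these data known, so the counts describe the cluster and do not test it. They cover all cells of cluster 12, its fibroblast-marker cells included, and the part of those cells in the list calls was not tested.

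Cluster 15 (309 APOE2, 98 APOE3 and 81 APOE4 cells) gave another pattern. It was led by Spp1, Lcn2 and chemokine genes and raised 7 of 7 markers of modulated smooth muscle, beside 5 of 7 in cluster 12. Cluster 15 kept 3 of 10 smooth muscle markers, so it was left unnamed and outside the smooth muscle sum. Mgp stood at 37254, 55762 and 33348 CPM in the APOE2, APOE3 and APOE4 cells of this cluster. That was 4.47-fold (4.45 to 4.48) the level of the smooth muscle clusters and the highest of the 11 clusters compared. Acan was also highest here, at 34.1, 65.2 and 70.1 CPM, 2.09-fold (1.92 to 2.26) higher. Sox9 was 4.30-fold higher (78.7, 31.5 and 53.5 CPM), Runx2 3.89-fold (11.1, 4.50 and 6.37 CPM), Comp 6.55-fold (139, 45.9 and 15.7 CPM) and Cytl1 11.9-fold (289, 217 and 279 CPM). The Comp value was set by the APOE2 library, where it was 15.4-fold, beside 1.64-fold in APOE3 and 1.78-fold in APOE4. In APOE3 alone, Runx2 (1.85-fold) and Acan (1.78-fold) were also under 2-fold.

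These 6 of the 10 genes were called in cluster 15, against a background of 7.43% of 10857 genes. Comp and Cytl1 rested on few cells, since 5 APOE2 cells held 50% of that library's Comp UMIs in the cluster and 2 or 3 cells per library held 50% of the Cytl1 UMIs. Msx2 was not raised (0.823-fold, 0.498 to 1.28), nor was Alpl (0.992-fold, 0.737 to 1.31), and Enpp1 was 1.43-fold (1.29 to 1.57). The 33 Chad UMIs were under the minimum, and 28 of them were in 1 cell. Fibroblast markers summed to 7289 CPM in the APOE2 cells of cluster 15 and to 320 and 281 CPM in those of APOE3 and APOE4, and their part in these levels was not tested. From the gene lists, Runx1 (6.71-fold), Spp1 (4990 against 2.68 CPM), Ank (2.78-fold), Slc20a1, a phosphate importer (2.05-fold), and Tnfrsf11b, which encodes osteoprotegerin (10.6-fold), were called. Runx2 was thus raised together with Msx2 in cluster 12, and together with Mgp and Acan in cluster 15.

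The genotypes were compared next. Acan and Comp were higher in the APOE3 library than in both others across the smooth muscle clusters. By cluster, Comp ranged from 14.0 to 38.4 CPM in APOE3, where the APOE2 range was 4.27 to 14.7 CPM and the APOE4 range 1.34 to 15.2 CPM. APOE2 against APOE3 gave a log2 ratio below 0 in 8 of 8 clusters (-2.25 to -0.92), and each interval lay below 0. For APOE4 to APOE3 it was also below 0 in 8 of 8 (-4.47 to -1.14), again with each interval below 0. Acan ranged from 16.4 to 59.4 CPM in APOE3, from 4.96 to 24.4 CPM in APOE2 and from 8.96 to 26.5 CPM in APOE4. Its ratios were below 0 in 8 of 8 clusters in both comparisons (-1.72 to -0.88, and -1.63 to -0.17), and the interval reached 0 in 1 cluster for APOE4. A single direction in all 8 clusters is common in these libraries. It was found for 22.6% of 9321 genes for APOE2 to APOE3, and for 33% of genes in both other comparisons. The 3 comparisons share libraries and are not independent of each other.

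Mgp was lower in APOE4. Its level ran from 5020 to 7152 CPM over the 8 clusters in APOE4, from 9038 to 12956 CPM in APOE3 and from 7906 to 11836 CPM in APOE2. The log2 ratio was -1.20 to -0.54 against APOE3 and -0.94 to -0.30 against APOE2, below 0 in 8 of 8 clusters each time. Sox9 had the reverse order against APOE2. It was higher in APOE4 than in APOE2 in 8 of 8 clusters (0.25 to 2.30), with the interval above 0 in 6, and its APOE3 level lay between them in the sum. Alpl, measurable in 6 clusters, was higher in APOE4 than in APOE2 in all 6 (0.20 to 1.93), with 5 intervals above 0. Enpp1 differed little, with APOE4 to APOE3 ratios of -0.75 to -0.04 and 4 intervals below 0. Runx2 and Msx2 could be compared in cluster 12 alone. There Runx2 was lower in APOE4 than in APOE3 (-1.25) and in APOE2 than in APOE3 (-0.69), and Msx2 differed by -0.55 and -0.81.

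**Figure D3:**
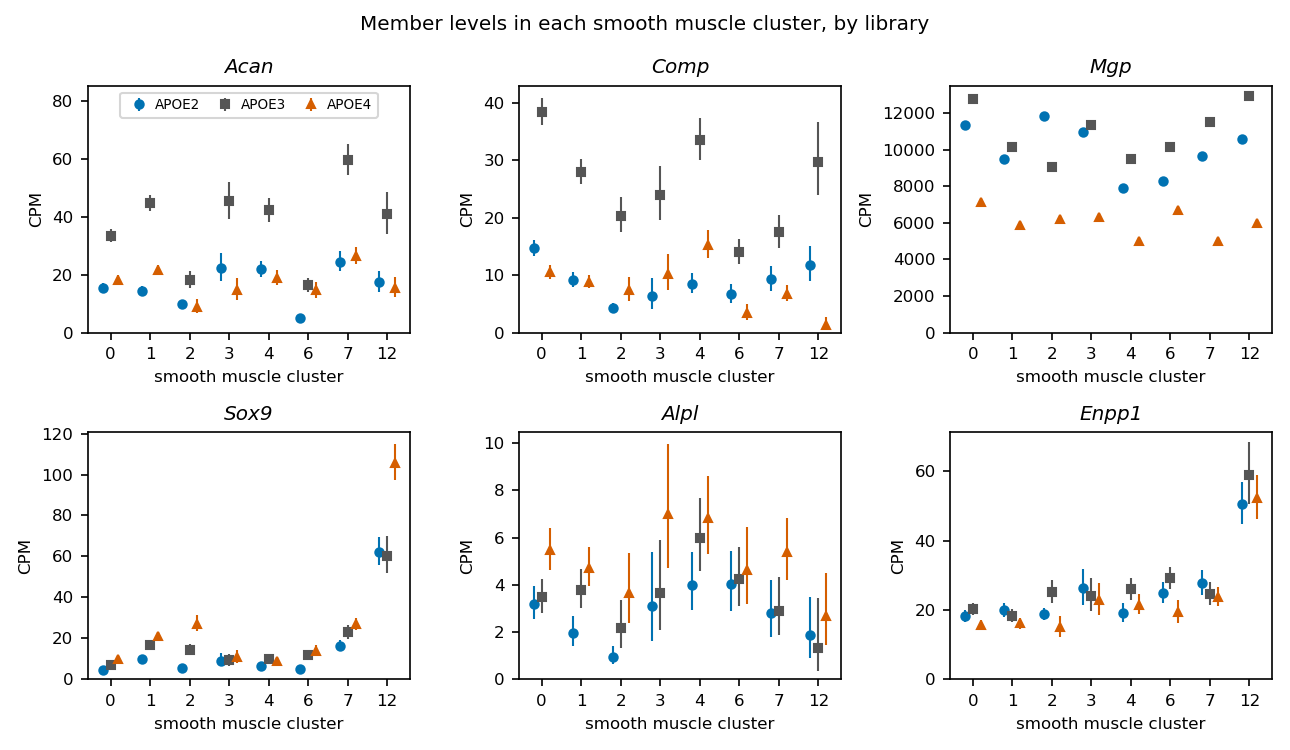
Level of Acan, Comp, Mgp, Sox9, Alpl and Enpp1 in each of the 8 smooth muscle clusters, as CPM in the APOE2, APOE3 and APOE4 library with exact Poisson 95% intervals. Acan and Comp were highest in APOE3 and Mgp lowest in APOE4 in all 8 clusters, while Enpp1 was raised in cluster 12 in every library.

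Summed over the 8 clusters, Comp stood at 28.0 CPM (26.9 to 29.1) in the APOE3 library, with 8.99 (8.45 to 9.56) in that of APOE2 and 8.83 (8.26 to 9.43) in that of APOE4. Acan stood at 36.6 CPM (35.4 to 37.9) in APOE3, and at 14.5 (13.8 to 15.2) and 19.0 CPM (18.2 to 19.9) in the APOE2 and APOE4 libraries. The log2 ratios to APOE3 were -1.64 (-1.74 to -1.53) and -1.66 (-1.77 to -1.55) for Comp, and -1.34 (-1.43 to -1.26) and -0.95 (-1.03 to -0.87) for Acan. Comp was therefore called in both comparisons and Acan in that of APOE2. Without clusters 2, 4 and 6 both genes were called in both, with ratios of -1.41 and -1.82 for Comp and -1.32 and -1.04 for Acan.

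Sox9 summed to 9.53 CPM in APOE2, 14.0 in APOE3 and 21.4 in APOE4, and the APOE4 to APOE2 ratio was 1.16 (1.06 to 1.27). Alpl summed to 2.48, 3.67 and 5.12 CPM, with an APOE4 to APOE2 ratio of 1.05 (0.83 to 1.26). Both were called, and neither was without clusters 2, 4 and 6, where the ratios were 0.89 (0.77 to 1.01) and 0.94 (0.68 to 1.21). Mgp summed to 10368, 10961 and 6143 CPM, a ratio of -0.84 (-0.84 to -0.83) for APOE4 to APOE3 that stayed under 2-fold. Runx2 summed to 2.66, 2.43 and 1.62 CPM, Msx2 to 1.52, 1.68 and 1.98 CPM, Enpp1 to 21.8, 23.7 and 19.8 CPM and Cytl1 to 18.9, 28.4 and 21.8 CPM. Neither Mgp nor any of these 4 was called in any comparison of the sums, with or without clusters 2, 4 and 6. Without the 3 clusters the ratio nearest to 2-fold was -0.96 for Runx2, APOE4 to APOE2, and Mgp gave -0.90 for APOE4 to APOE3. Without the fibroblast-marker cells the APOE2 to APOE3 ratio of Cytl1 moved from -0.59 to -1.51 (-1.67 to -1.35), and the gene was called. Both ratios include 1 APOE3 cell of cluster 2 with 217 Cytl1 UMIs.

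Chad had 11, 102 and 30 UMIs in the smooth muscle sums of APOE2, APOE3 and APOE4. Of the 102 in APOE3, 77 were in 1 cell of cluster 2. The ratios to APOE3 were -3.49 for APOE2 and -1.86 for APOE4 with that cell in the sum. Without clusters 2, 4 and 6 they were -1.01 (-2.27 to 0.16), on 30 UMIs, and 0.33 (-0.53 to 1.23). Chad included, 3 of 10 genes were called for APOE2 to APOE3, 2 of 10 for APOE4 to APOE3 and 2 of 9 for APOE4 to APOE2. The backgrounds were 3.88%, 4.17% and 6.91% of genes. Without clusters 2, 4 and 6 the counts were 2, 2 and 0, against 3%, 3.11% and 5.41%. The median log2 ratio of the genes was -0.56 for APOE2 to APOE3, beside 0.04 over all genes, -0.48 beside -0.08 for APOE4 to APOE3, and 0.21 beside -0.11 for APOE4 to APOE2.

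The differences in Comp, Acan, Sox9 and Alpl did not rest on the 10 highest cells of each library. Comp was uneven beyond these, since 54 of 4354 cells held 50% of its UMIs in cluster 0 and 40 of 3465 in cluster 1. Leaving out a larger set of cells was not tested. With the 10 cells of each library that held most UMIs of the gene left out, the ratios to APOE3 were -1.73 (APOE2) and -1.71 (APOE4) for Comp and -1.36 and -0.95 for Acan. The APOE4 to APOE2 ratios were then 1.23 for Sox9 and 1.10 for Alpl. The share of smooth muscle cells with a UMI, after thinning to 1000 UMIs, gave the same highest library for Comp, Acan and Sox9. APOE2 and APOE4, close in Comp CPM, were in the reverse order in the Comp share. For Comp it was 0.792% (APOE2), 2.33% (APOE3) and 0.870% (APOE4), and unthinned 5.29%, 12.1% and 6.39%. For Acan it was 1.29%, 3.19% and 1.86%, and unthinned 12.3%, 30.1% and 18.7%. For Sox9 it was 0.819%, 1.13% and 1.76%, and unthinned 7.68%, 14.2% and 16.2%. The 1220 macrophage-, T and B lymphocyte-like cells deep enough to thin, which should lack these genes, gave 0.328% for Comp and Sox9. For Acan it was 0 of 1220 cells, which allows a share of up to 0.246% (3 counts of the total). In single libraries the immune share was the same for Comp and Sox9. It was 0.529% (0.109 to 1.54) in APOE2, 0 of 144 cells (0 to 2.53%) in APOE3 and 0.196% (0.005 to 1.09) in APOE4. These intervals overlapped those of the smooth muscle shares in each library for Comp, and in APOE2 and APOE3 for Sox9. The part of free RNA in these shares was not tested. Over the libraries the unthinned median of the immune cells was 6218 UMIs per cell, against 15673 in smooth muscle. For Runx2 the immune share was 1.23%, above the 0.238%, 0.249% and 0.174% of smooth muscle cells, and at 13.7 CPM in immune cells the gene has no background cell class here. Mgp gave 98.0%, 98.4% and 95.5% in smooth muscle beside 26.8% in immune cells.

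The other genes of the 6 lists were compared between genotypes in the sums over all 8 smooth muscle clusters. Of 60 measured genes, 3 were called higher and 1 lower for APOE2 to APOE3, beside the background of 3.88%. Of 62, 2 were higher and 3 lower for APOE4 to APOE3 (background 4.17%), and 5 were higher and 4 lower for APOE4 to APOE2 (background 6.91%). Spp1, the osteopontin gene, was called in all 3 comparisons, at 6.03, 1.41 and 0.079 CPM in APOE2, APOE3 and APOE4. Its APOE2 to APOE3 ratio was 2.10 (1.83 to 2.37) and its APOE4 to APOE3 ratio -4.16 (-5.40 to -3.14). Its level in cluster 15 had the same order, at 8267, 145 and 81.1 CPM in 309, 98 and 81 cells, and the part of free RNA in the smooth muscle values was not tested. Smpd3, a sphingomyelinase needed for bone mineral, was higher in APOE4 than in APOE3 (1.37), as was Matn4 (1.40), a cartilage matrix gene. Ahsg, the fetuin-A gene, was lower in APOE4 (-1.13), and Grem1 was higher in APOE2 (2.26). No gene of the transcription factor list was called in any of the 3 comparisons.

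The genotype pools differed in the position code of their smooth muscle cells, which was read from RNA. Arch code cells had a Hand2 UMI and none of 6 Hox genes, and descending code cells the reverse. Arch cells made up 40.9%, 28.0% and 18.1% of smooth muscle cells in APOE2, APOE3 and APOE4 (3172, 1249 and 1047 cells), and descending cells 21.0%, 34.4% and 41.7% (1625, 1531 and 2414 cells). Median depths were close, at 17302 and 15974 UMIs. Of the 5468 arch code cells, 1556 were in cluster 2, which was led by heart muscle genes. APOE2 gave 2157 of the 3067 cells of that cluster. Whether the code gives the place of a cell in the aorta was not tested. Over the libraries together 5 of 10 genes were called between these cells, against a background of 4.74% of 14807 genes.

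Runx2, Msx2, Cytl1 and Chad were called higher in arch cells, Chad through 1 cell, and Alpl in descending cells. Runx2 stood at 1.95, 1.99 and 1.62 CPM in arch cells of APOE2, APOE3 and APOE4 and at 1.08, 0.279 and 0.324 CPM in descending cells. The pooled log2 ratio was 1.94 (1.49 to 2.42), and without cluster 12 it was 1.47 (0.92 to 2.05). Msx2 had 105 UMIs in arch cells and 6 in descending cells, a ratio of 4.04 (2.87 to 5.52), and Cytl1 a ratio of 1.61 (1.42 to 1.81). The 82 arch UMIs of Chad all came from APOE3, and 77 of them from the single cell of cluster 2 described above. Alpl had the opposite sign in each library. It stood at 1.49, 1.56 and 2.39 CPM in arch cells and 3.29, 4.34 and 5.46 CPM in descending cells, a pooled ratio of -1.44 (-1.70 to -1.19).

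Acan and Sox9 were higher in arch cells and Comp in descending cells in every library, without reaching 2-fold in the pool (0.73, 0.64 and -0.82). Mgp (0.25) and Enpp1 (0.14) differed least. Markers of other cell types also differed with the code. Fibroblast markers summed to 113, 59.5 and 52.0 CPM in arch cells and 65.5, 28.3 and 31.0 CPM in descending cells, and heart muscle markers to 493, 269 and 164 CPM and 187, 130 and 109 CPM, and their part in these ratios was not tested.

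**Figure D4:**
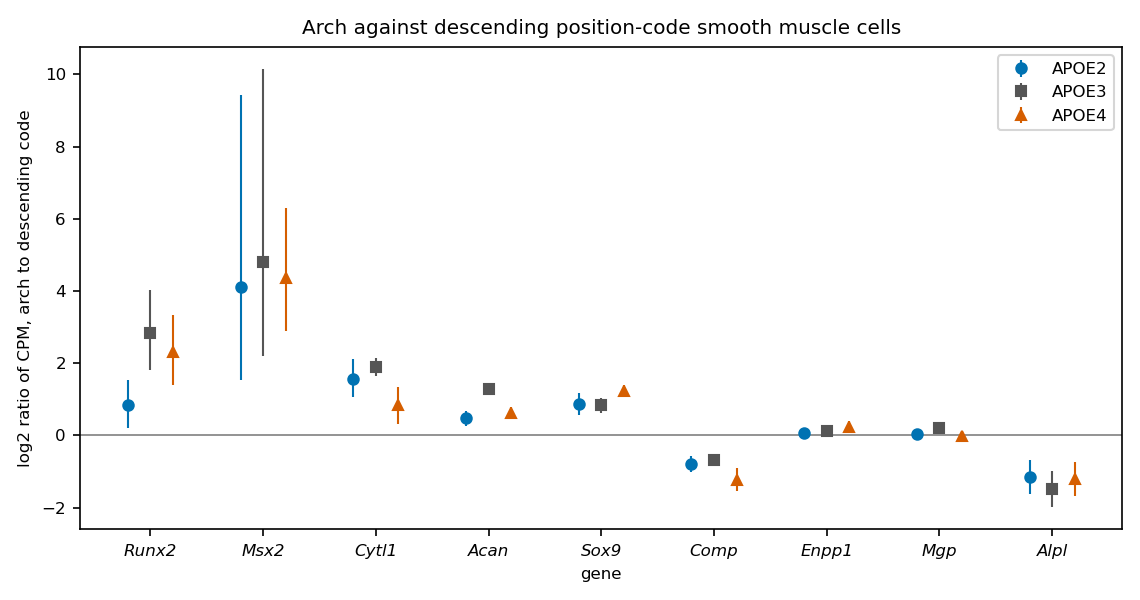
Log2 ratio of arch code to descending code smooth muscle cells for the genes in the APOE2, APOE3 and APOE4 library, with exact 95% intervals. Alpl lay below 0 (-1.15, -1.48 and -1.20) and Runx2 above 0 (0.85, 2.83 and 2.32) in all 3 libraries.

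The genotype ratios were also taken within each code. In arch cells the ratios to APOE3 were -1.76 (APOE2) and -2.35 (APOE4) for Comp and -1.84 and -1.07 for Acan, and in descending cells -1.64 and -1.81 for Comp and -1.04 and -0.42 for Acan. For Sox9, APOE4 to APOE2 was 1.80 in arch and 1.45 in descending cells. For Mgp, APOE4 to APOE3 was -0.99 and -0.76. For Alpl, APOE4 to APOE2 was 0.68 in arch cells and 0.73 in descending cells, beside 1.05 in all smooth muscle cells. Descending cells, which had more Alpl, were also a larger part of the APOE4 pool. The part of position in the Alpl ratio was not tested. Cytl1 was lower than in APOE3 by -2.19 and -2.80 in arch cells and by -1.86 and -1.73 in descending cells, for APOE2 and APOE4. The APOE3 descending cells held 181 Cytl1 UMIs, so the APOE3 cell of cluster 2 with 217 was not among them. Its part in the arch ratios was not tested.

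In the fibroblast-like clusters, 6 of the 10 genes were called higher than in smooth muscle, against a background of 20.6% of 12898 genes. Cytl1 stood at 305, 705 and 536 CPM in fibroblast-like cells of APOE2, APOE3 and APOE4, 21.0-fold above smooth muscle over the libraries. Comp stood at 222, 301 and 131 CPM, 14.4-fold higher. Runx2 (13.2, 17.3 and 14.7 CPM) was 6.51-fold higher, Sox9 (30.8, 38.3 and 55.9 CPM) 2.76-fold and Alpl (29.9, 8.26 and 7.46 CPM) 4.70-fold. The Alpl difference was uneven, at 12.1-fold in APOE2, 2.25-fold in APOE3 and 1.46-fold in APOE4. Acan was the reverse, at 1.32, 6.56 and 2.64 CPM, 0.134-fold of smooth muscle, and Msx2 had 20 UMIs in all. Mgp was 1.54-fold and Enpp1 0.706-fold of smooth muscle. In these sums, fibroblast-like cells thus had more Comp and Cytl1 but less Acan than smooth muscle, and more Runx2 with few Msx2 UMIs. Whether single cells had this pattern was not tested.

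Chad, at 0.277, 234 and 4.72 CPM, was almost entirely an APOE3 signal, and it came from few cells. Cells with at least 10 UMIs over 9 chondrocyte markers, none of them among the 10 genes, numbered 15 in APOE3, 2 in APOE2 and 0 in APOE4. Of the 15, 13 were in fibroblast-like cluster 8 and 2 in cluster 9. They held 2156 of the 2301 Chad UMIs of the APOE3 library (93.7%), 15 to 310 per cell with a median of 152, and 438 of its 451 Col2a1 UMIs. Their median was 10725 UMIs per cell and none was among the highest doublet scores. In APOE4, 47 of the 50 fibroblast Chad UMIs were in 1 cell. Of the UMIs in the APOE3 fibroblast-like clusters, the 13 cells held 99.5% for Chad, 75.9% for Acan, 51.7% for Cytl1, 36.0% for Comp and 34.3% for Sox9, but 7.75% for Runx2 and 2.94% for Alpl. They are called cartilage-gene cells here.

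The genotype ratios in fibroblast-like cells changed with these cells. With them, 4 of 9 measurable genes were called for APOE2 to APOE3, namely Chad (-9.72), Acan (-2.32) and Cytl1 (-1.21) lower and Alpl higher. For APOE4 to APOE3, Comp (-1.20), Chad (-5.63) and Acan (-1.31) were called of 9, and for APOE4 to APOE2, Chad (4.09) and Alpl of 8. The backgrounds were 3.55%, 2.93% and 4.59%. Without the 13 cells, Alpl alone was called for APOE2 to APOE3 (background 3.34%). Comp was then 0.18, Cytl1 -0.19 and Acan -0.29. Acan and Chad were under the 50-UMI minimum there and could not be called. Acan had 19 UMIs in APOE2, and 41 of its 54 UMIs in APOE3 were in the removed cells. For APOE4 to APOE3 (background 2.94%), Sox9 was called at 1.13 (0.89 to 1.36) and Chad at 2.08, the latter on 1 cell, and Comp was -0.58 and Cytl1 0.63. The calls for APOE4 to APOE2 did not involve these cells (background 4.59%). The median log2 ratio of the measurable genes was -0.39, -0.23 and 0.05 with all cells, beside -0.003, -0.09 and -0.07 over all genes.

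The cartilage matrix list behaved in the same way. With all cells 9 of its 16 measured genes were called lower in APOE2 and 9 of 16 lower in APOE4 than in APOE3, Col2a1 and Snorc among them. Without the cartilage-gene cells 2 of 10 were called lower in each, Matn3 and Fmod in APOE2 and Matn3 and Epyc in APOE4. The source of these cells in the tissue was not tested.

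**Figure D5:**
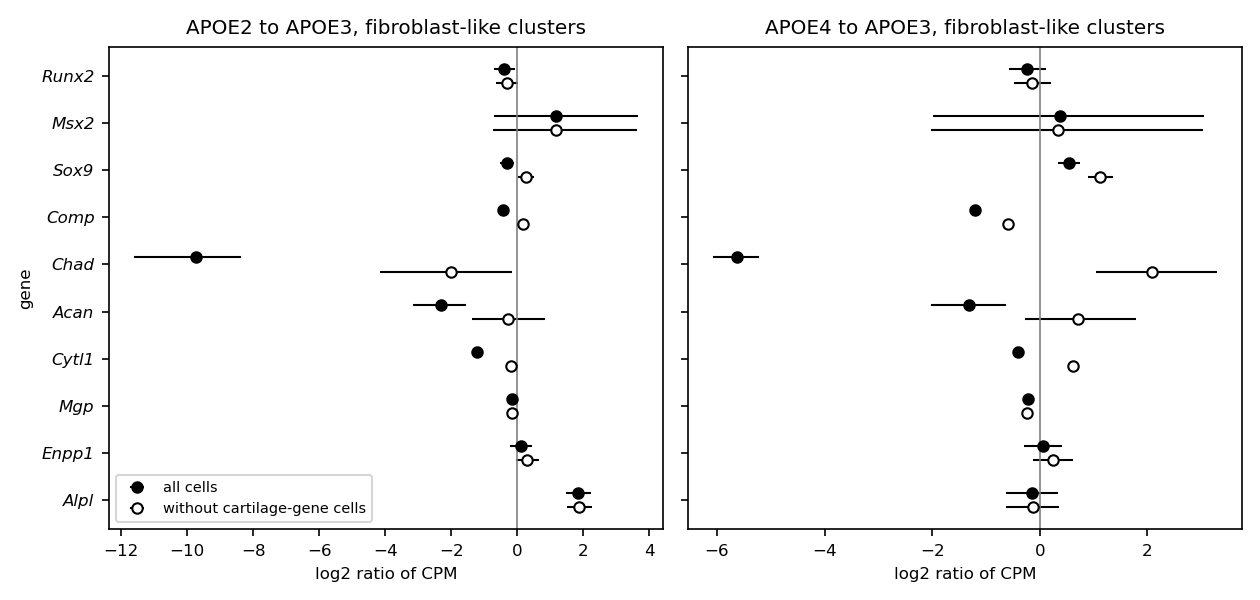
Log2 ratio of CPM in fibroblast-like clusters for each gene, APOE2 to APOE3 on the left and APOE4 to APOE3 on the right, with all cells (filled) and without the 13 cartilage-gene cells (open), and exact 95% intervals. Chad moved from -5.63 to 2.08 for APOE4 and Cytl1 from -1.21 to -0.19 for APOE2, while Alpl stayed at 1.86 and 1.87 for APOE2.

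Alpl was the gene whose fibroblast difference did not involve the cartilage-gene cells. Its APOE2 to APOE3 ratio was 1.86 (1.48 to 2.25) and its APOE4 to APOE2 ratio -2.0 (-2.37 to -1.66). It was located in cluster 8, whose markers included 4 of 5 of the Dpp4 type. There Alpl stood at 46.1 CPM in APOE2, 11.9 in APOE3 and 8.39 in APOE4, and 129 of 591 APOE2 cells had a UMI. In cluster 5, led by Fmod and Inmt, it stood at 8.78, 5.65 and 6.85 CPM, and these levels were closer together. The order of the genotypes for Alpl was thus APOE2 highest in fibroblast-like cells and APOE4 highest in smooth muscle. Sox9 was highest in APOE4 in both fibroblast-like clusters, as in the smooth muscle sum. In cluster 8 it stood at 38.9, 62.6 and 77.7 CPM and in cluster 5 at 20.3, 20.7 and 41.7 CPM. Without the cartilage-gene cells the APOE3 level over both clusters fell to 25.6 CPM, under the 30.8 CPM of APOE2 (0.27, 0.03 to 0.51).

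Across the 8 smooth muscle and 2 fibroblast-like clusters, which share the 3 libraries, likeness was described by Pearson's r of log2(CPM + 1). Runx2 was most like Stk32a (r = 0.99), Frmd5 and Tox, and Msx2 was most like Dlx2 and Dlx1 (1.00 each), further homeobox genes, and Fgf5 (0.99). Cytl1 was most like Enpp3, Fetub and Adgrg2 (0.99 each). Sox9 was most like Fam117a (0.97), Enpp1 like Cds1 (0.96), Alpl like Rab11fip5 (0.97) and Mgp like Dnaaf2 (0.96). Comp was most like Itga2b (0.98), Chad like Ifi205 (0.97) and Acan like Lratd1 (0.95). Among the genes themselves, Runx2 was most like Cytl1 (0.96) and Sox9 (0.87), and Msx2 most like Enpp1 (0.76). Acan ran against Mgp (-0.88) and Comp (-0.82). With 10 clusters these values describe the order of levels and nothing more.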

How the data were processed

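Single-cell RNA-seq of whole aortas was analysed from 3 droplet libraries, 1 pool of mice per genotype. Raw UMI counts per gene and barcode were deposited, made by the authors with Cell Ranger on the mm10 build (the file headers give version 7.0.1) and not normalized. Gene positions were taken from GENCODE M21. The 10 genes and the lists were chosen with earlier results of these data known. No column was left without a sample.

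Cells with at least 200 genes and under 20% mitochondrial UMIs were kept (depths are given above). They were normalized with sctransform 0.4.2, integrated by canonical correlation over 3000 features and 30 components in Seurat 5.3.0 (R 4.3.3) and clustered by Louvain at resolution 0.8. The 10 genes were left out of the features. The study's methods name a later Seurat version. Smooth muscle-like clusters kept at least 8 of 10 markers and had under 3 raised markers of another type. Their median UMI count also had to reach that of their libraries divided by 3. Fibroblast-like clusters had at least 3 raised markers. Likely doublets, from Scrublet (scanpy 1.11.5), stayed in except in 1 alternative.

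UMIs were summed per class and library, with exact Poisson intervals for CPM, exact conditional binomial intervals for ratios and Clopper-Pearson intervals for shares (scipy 1.17.1), all at 95%. The steps were tested on simulated counts. With 1 library per genotype and pooled mice, the spread between mice is unknown, and genotype and library cannot be told apart. In every comparison all 10 genes were named, in the lists at most 5 called genes by size, for clusters the 10 leading genes (by the ratio of CPM + 1), and for likeness the 3 highest. Alternatives covered the cell filter, doublets, scaling, classes, integration, resolution, thinning and position code. Further ones were added after the data were seen, leaving out cartilage-gene cells, fibroblast-marker cells, top cells, clusters or 1 position code. Lipid and PCR measurements were not analysed here.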

Additional observations from a re-analysis of the deposited data

Results flagged for a closer look

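Alpl differed between APOE4 and APOE2 in opposite directions in the 2 cell classes. In the smooth muscle clusters the log2 ratio was 1.05, with 2.48 CPM in APOE2 and 5.12 CPM in APOE4, and in the fibroblast-like clusters it was -2.0, with 29.9 and 7.46 CPM. It was listed because the 1 library of each genotype moved 1 way in smooth muscle and the opposite way in fibroblast-like cells. The difference between the classes was not tested, since there is 1 library per genotype. Of the Alpl UMIs in APOE2 fibroblast-like cells, 377 of 432 were in cluster 8. Descending code cells, which had the higher Alpl level in smooth muscle, made up 21.0% of the APOE2 and 41.7% of the APOE4 smooth muscle cells, and within a position code the smooth muscle ratio was 0.68 and 0.73. The part of position in the smooth muscle ratio was not tested. No other member had a called ratio of opposite sign in the 2 classes.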

How the results depend on the processing

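No paired analysis was possible because each genotype has 1 library, and leaving out a replicate was not possible for the same reason. Of 676 alternative values of the genotype ratios, 495 stayed inside the counting interval of the reported value, 176 moved outside it and 5 reversed. Of 90 alternative shares of cells with a UMI 54 moved outside the interval, as did 23 of 58 alternative ratios between arch and descending cells, and none reversed. For Chad, APOE4 to APOE3, the ratio reversed to 0.33 in smooth muscle without clusters 2, 4 and 6 and to 2.08 in fibroblast-like cells without the cartilage-gene cells. For Acan in fibroblast-like cells, APOE4 to APOE3 reversed to 0.72 without those cells, where it was under the 50-UMI minimum. Its APOE2 to APOE3 ratio reversed to 0.98 with cells classed by their own markers and to 0.19 with libraries merged without integration. Counts of called genes stayed within 1.5 times the reported count 70 times and moved further 7 times. In smooth muscle, APOE4 to APOE3 gave 5 in arch cells alone (reported 2), and APOE4 to APOE2 gave 0 without clusters 2, 4 and 6 and 1 in descending cells alone (reported 2). In fibroblast-like cells, APOE2 to APOE3 gave 2 with cells classed by their own markers and 1 without cartilage-gene cells (reported 4). Between arch and descending cells, APOE2 alone gave 2 and APOE4 alone 3 (reported 5). The cause was not tested. Runx2, Msx2, Sox9 and Enpp1 were called in the cluster that holds most of cluster 12 under all 5 clusterings. Cytl1 was not as stable there, at 128-fold as reported and 119, 5.61 and 5.74-fold at resolution 0.4, at 1.6 and without integration, and it was highest in another cluster at resolution 1.6, without integration and when the 10 genes were kept as features, where it was not called in the cluster 12 cells. Chad was called in that cluster at resolution 0.4 but not in the other 3 clusterings or without the highest doublet scores. Depth limits Msx2, Chad, Runx2 and Alpl most, with under 50 UMIs in several clusters.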

Other observations

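Cytl1 was also high outside the smooth muscle and fibroblast-like cells. In the 158, 37 and 40 endothelial-like cells of APOE2, APOE3 and APOE4 it stood at 2735 CPM (2648 to 2825), 2023 (1833 to 2228) and 2671 (2444 to 2914), above the 305 to 705 CPM of the fibroblast-like sums in every library and near the 2992 CPM of the 94 fibroblast-marker cells of cluster 12. It was uneven among these cells too, since 88 of the 235 cells had a UMI and 10 held 50% of them. Sox9 had 12 UMIs in the endothelial-like cells, so the high Cytl1 level was not accompanied by it there.

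Runx2 was also present in macrophage-, T and B lymphocyte-like cells. The APOE4 library gave 18.3 CPM there (14.2 to 23.2), that of APOE2 gave 12.8 (10.0 to 16.1) and that of APOE3 gave 4.92 (1.98 to 10.1), the last on 7 UMIs in 144 cells. The mix of these cells differed between the libraries, with 421, 116 and 131 macrophage-like, 34, 11 and 278 B lymphocyte-like and 120, 17 and 104 T lymphocyte-like cells in APOE2, APOE3 and APOE4, and its part in these levels was not tested. Over the libraries 85 of 1232 such cells had a Runx2 UMI, while Sox9 had 29 UMIs in them and Alpl 8.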
